A study of Homo sapiens with 24 samples.

Results

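Ephrins and Eph receptors were described as 10 genes taken by name from the 58676 gene identifiers measured in diffuse midline glioma (DMG) cells. They were the EphB receptors EPHB1, EPHB2, EPHB3 and EPHB4, the ephrin-B ligands EFNB1, EFNB2 and EFNB3, and the EphA receptors EPHA3, EPHA4 and EPHA7. RNA was sequenced in 24 libraries of HSJD-DIPG-007, an established line from a paediatric brainstem tumour that was grown as spheroids and whose labelled genotype is H3F3A K27M, ACVR1 R206H and PIK3CA MIS in both treatment groups. Cells received vehicle or LLY-283, an inhibitor of the arginine methyltransferase PRMT5, at the dose that inhibits growth by 40%, and the medium with drug or vehicle was renewed after day 5. Days 0 and 5 were covered by 3 libraries in either treatment group, day 7 by 2, and days 1, 2, 3 and 10 by 1. The study calls the libraries of a group technical repeats of 1 line, so p-values measure the spread between these libraries and need not cover that between independent cultures. RNA is measured here, not the receptors' protein or phosphorylation, and fewer cells expressing a gene cannot be told apart from less RNA per cell.

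Eph receptors are receptor tyrosine kinases, and their ligands, the ephrins, are bound to the membrane of the neighbouring cell. A-type ephrins hang on a lipid anchor and B-type ephrins cross the membrane, so that contact between cells signals both forward into the receptor's cell and in reverse into the ligand's cell. In the brain the family is known for repulsion and adhesion during axon guidance, for boundaries between groups of cells, for neural progenitor niches and for the migration of glioma cells.

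The libraries held 13835205 to 23190369 estimated counts, with a median of 18688160.5. Levels are given as CPM, the counts of a gene per 1000000 counts of its library, with TMM scaling over the 24 libraries. The summed level of 8 glial precursor markers lay between 4209 and 4988 CPM, with OLIG1, OLIG2, PDGFRA, CSPG4, SOX2 and NES abundant and SOX10 at 0 to 11 counts. Markers of other cells were lower, at 197 to 386 CPM for 11 fibroblast genes, of which THY1, POSTN and LUM held most, and at 242 to 369 CPM for 4 astrocyte genes, of which S100B held most. The astrocyte gene AQP4 was at 0 counts in all libraries. At day 7 the 2 libraries of each treatment group stood far apart. Their distance, as a chi-square per degree of freedom over genes, was 11.2 for vehicle and 13.4 for LLY-283. Between repeats at days 0 and 5 it was 1.65 to 3.79. LLY-283 repeat 2 and vehicle repeat 1 lay at 2.93, the smallest distance at day 7, although their labels differ. Vehicle repeat 2 lay at 10.6 from LLY-283 repeat 1, about as far as from vehicle repeat 1. Libraries of opposite groups lay at 10.7 to 16.2 at day 5. With 2 libraries in a group, these distances cannot say which library departs from its label. Day 7 values are therefore given for each library under its label.

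The 250 bases before the transcription start, from RefSeq on GRCh38.p14, are shown for the 3 members that differed between the treatment groups at day 5, so that their letters and base composition can be compared. Of the 10 members, 9 had an entry, and EFNB3 had none. Each sequence runs 5′ to 3′ on the gene's own strand, and capitals mark the GC box GGGCGG on either strand, the motif bound by SP1-type factors. EPHA4 has 2 annotated starts, both shown, and a further entry of EPHB2, at 22710589-22710838, is left out.
EPHB2, chr1:22710588-22710837, plus strand: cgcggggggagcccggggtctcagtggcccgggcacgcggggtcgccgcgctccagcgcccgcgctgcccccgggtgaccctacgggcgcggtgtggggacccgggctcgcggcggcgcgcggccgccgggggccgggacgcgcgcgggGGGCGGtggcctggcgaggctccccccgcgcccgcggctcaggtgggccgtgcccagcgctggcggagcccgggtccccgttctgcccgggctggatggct
EFNB1, chrX:68828771-68829020, plus strand: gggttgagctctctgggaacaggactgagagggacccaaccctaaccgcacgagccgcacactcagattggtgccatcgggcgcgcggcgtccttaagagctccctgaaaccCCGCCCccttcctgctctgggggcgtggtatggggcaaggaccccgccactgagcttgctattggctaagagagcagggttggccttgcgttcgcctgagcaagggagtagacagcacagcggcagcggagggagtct
EPHA4, upstream start, chr2:221574203-221574452, minus strand: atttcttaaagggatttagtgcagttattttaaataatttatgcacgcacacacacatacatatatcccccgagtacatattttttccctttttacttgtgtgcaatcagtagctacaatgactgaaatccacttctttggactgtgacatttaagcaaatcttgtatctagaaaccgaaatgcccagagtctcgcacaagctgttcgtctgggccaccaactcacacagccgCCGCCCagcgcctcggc
EPHA4, downstream start, chr2:221572305-221572554, minus strand: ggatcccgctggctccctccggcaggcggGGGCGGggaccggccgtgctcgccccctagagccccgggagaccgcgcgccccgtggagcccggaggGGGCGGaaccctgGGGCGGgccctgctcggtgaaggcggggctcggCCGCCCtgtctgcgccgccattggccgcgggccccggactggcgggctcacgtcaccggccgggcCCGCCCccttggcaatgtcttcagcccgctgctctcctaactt

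The stretches differed widely in base composition. That of EPHB2 held 42 CpG dinucleotides, more than 98.6% of all 35093 promoters in the table, where the median was 11, and 84.8% of its bases were G or C. That of EFNB1 held 15 CpG dinucleotides. The upstream start of EPHA4 had 9 and the downstream start 30. A GC box occurred in 12 of the 13 stretches in the table for the 9 members with an entry and in 42.6% of all promoters. The stretches of EPHB2 almost coincide and some of EPHA7 overlap, so the same GC box was counted more than once. Counted by member, 8 of the 9 had a GC box. There was 1 copy before EPHB2 and EFNB1 and 5 before the downstream start of EPHA4. A match is a run of letters and not a site shown to be bound.

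Expression differed strongly between members of the same class. Per kilobase of merged exons, EPHB3 was highest, at 67.8 ± 8.17 CPM (SD over 24 libraries). It was followed by EPHB4 at 23.5 ± 1.90, EFNB1 at 22.1 ± 3.02 and EFNB2 at 20.5 ± 4.69 CPM per kilobase, whose ranges overlapped and whose order is therefore not separated by the spread. EFNB3 came next at 5.87 ± 1.06 CPM per kilobase. EPHA4 at 2.55 ± 0.461 and EPHA7 at 1.94 ± 0.129 overlapped, and their order turned when the longest transcript was taken as the length. EPHB2 was the lowest of the 8 members with regular counts, at 1.01 ± 0.255 CPM per kilobase. EPHB1 and EPHA3 were at the limit of the libraries, with 0 to 6 and 0 to 3 counts, and a count of 0 allows up to 0.217 CPM in the smallest library.

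**Figure D1:**
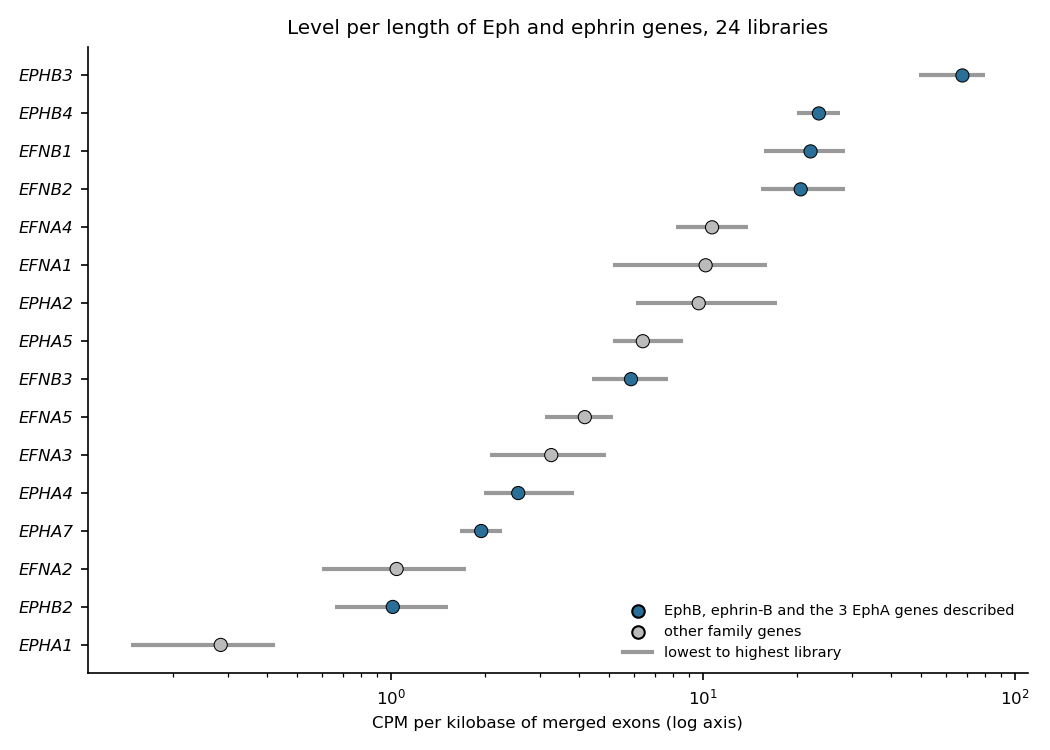
Mean level of Eph and ephrin genes in CPM per kilobase of merged exons on a log axis, with each line from the lowest to the highest of 24 libraries and genes under 10 counts in any library left out. EPHB3 stands above all others at 67.8 CPM per kilobase, and EPHB2 lies near the bottom at 1.01.

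Among the EphB receptors, EPHB3 made up 65.6% to 77.3% of the summed level per kilobase in a library and EPHB2 0.742% to 1.74%. EFNB1 made up 40.4% to 53.9% of the ephrin-B sum, and EFNB2 31.5% to 50.5%. At day 5 the EphB sum was 89.7 ± 2.27 CPM per kilobase with vehicle and 88.1 ± 1.67 with LLY-283 (SD, n = 3). The ephrin-B sum was 46.7 ± 0.722 with vehicle and 39.3 ± 1.57 with LLY-283 (SD, n = 3), a description without a test.

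The members also differed in how much they varied. The highest library stood 2.30-fold over the lowest for EPHB2, 1.94-fold for EPHA4, 1.86-fold for EFNB2, 1.81-fold for EFNB1 and 1.75-fold for EFNB3. The range was narrower for EPHB3, at 1.62-fold, EPHB4, at 1.38-fold, and EPHA7, at 1.37-fold. The least expressed of these receptors was thus the one with the widest relative range.

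**Figure D2:**
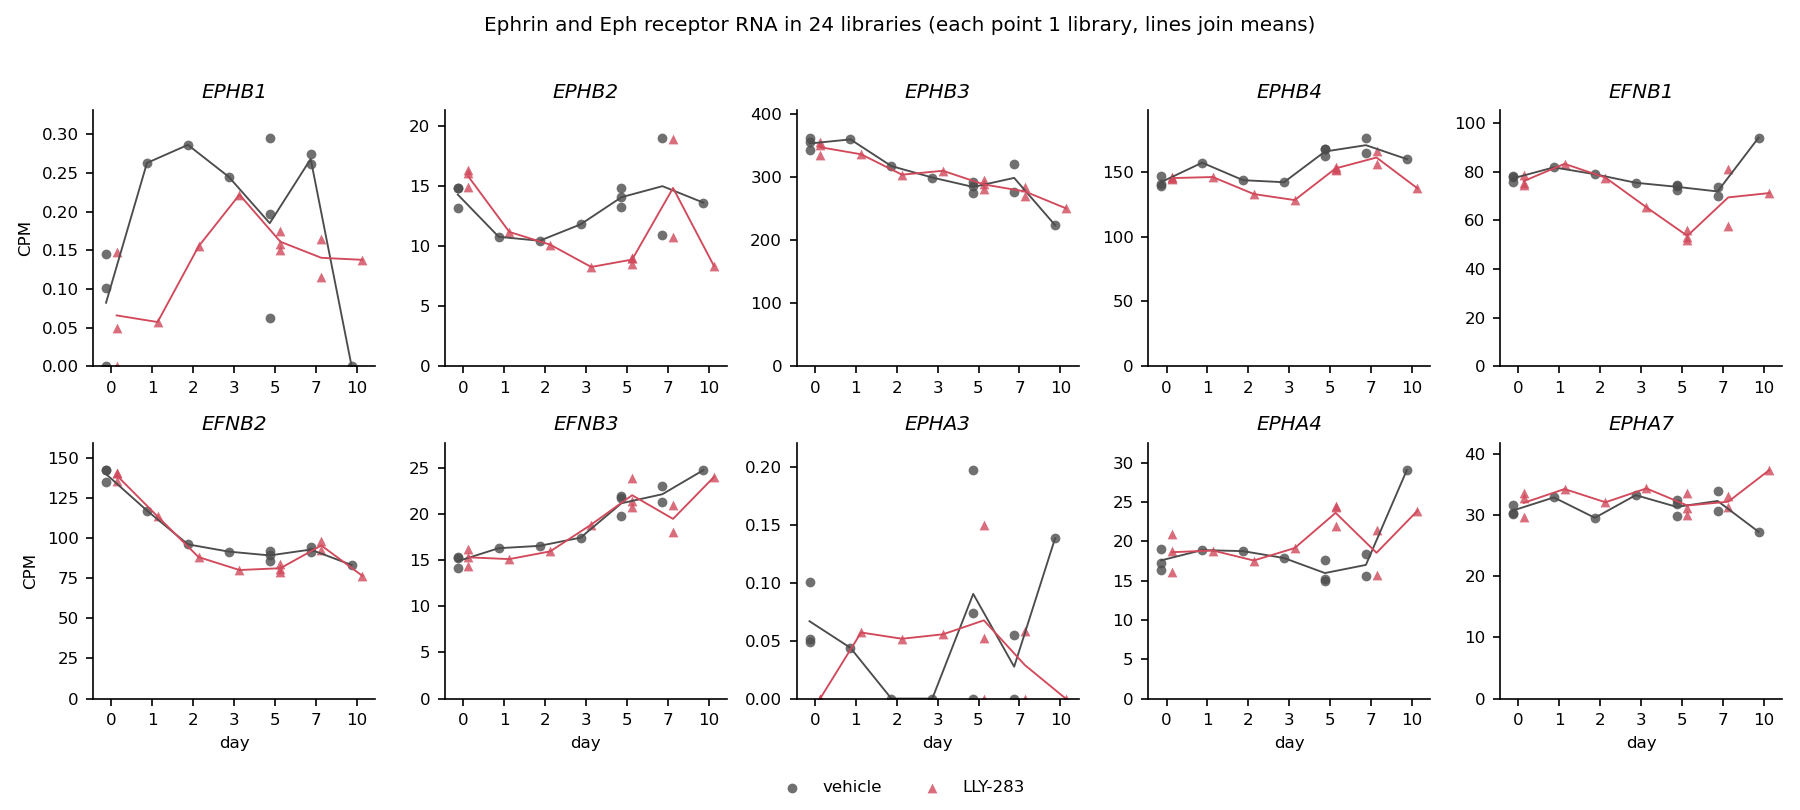
Level of each member in CPM by day, with 1 point per library, circles for vehicle and triangles for LLY-283, and lines through the mean of each day. EPHB2 and EFNB1 lie lower and EPHA4 higher with LLY-283 at day 5, and EFNB2 falls in both groups. At day 7 the libraries of each group lie far apart in EPHB2, and its means come together.

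The comparison at day 5 asked which members differed after treatment with LLY-283. Of the 8 members that passed the filter on low counts, EPHB2 and EFNB1 fell and EPHA4 rose at an adjusted p under 0.01, the threshold for a call. Of all 16491 genes tested, 26.1% were called, 12% higher and 14.1% lower, so the 3 of 8 members stand near that background. The median log2 fold change was -0.03 over the 8 members and 0.02 over all genes. Those that fell were a receptor and a ligand of the B class, and the one that rose was a receptor of the A class. Other tested members of both classes were not called.

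EPHB2 (chr1:22710839-22921500, plus strand, hg38), a receptor for B-type ephrins that also guides progenitor cells, was at 14.9, 13.3 and 14.1 CPM in the vehicle libraries of day 5. It was at 9.05, 9.06 and 8.56 CPM in the LLY-283 libraries. The groups did not overlap, and the lowest vehicle library stood above all 3 treated ones. The log2 fold change was -0.64 ± 0.098 (SE; adjusted p = 7.2e-06), on 155 to 239 counts per library. The study also measured EPHB2 by RT-qPCR in independent repeats of this line with LLY-283. It lists the gene as lower by RNA sequencing but without change by RT-qPCR.

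EFNB1 (chrX:68829021-68842160, plus strand), a transmembrane ligand of EphB receptors, was at 74.7, 72.6 and 74.0 CPM with vehicle. With LLY-283 it was at 55.9, 51.8 and 53.0 CPM. Again the groups were apart by far more than their own range, with a mean 27.3% lower in the treated libraries. The log2 fold change was -0.44 ± 0.046 (SE; adjusted p = 1.7e-08).

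EPHA4 (chr2:221418027-221574202, minus strand), a receptor that binds both ephrin types, went the other way. It was at 17.7, 15.3 and 15.01 CPM with vehicle and at 24.5, 24.4 and 21.97 CPM with LLY-283. Its groups did not overlap either, and the log2 fold change was 0.58 ± 0.079 (SE; adjusted p = 1.2e-06). EPHA4 shares 353 exon bases with a long non-coding gene on the opposite strand, and the strand setting of the counting was not given in the sources used here.

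The other 5 members tested did not pass the threshold. EPHB4, the receptor of EFNB2 in vessels, was at 162 to 168 CPM with vehicle and 152 to 154 CPM with LLY-283, a log2 fold change of -0.09 (adjusted p = 0.041). EFNB2, its ligand, was at 85.8 to 92.1 CPM with vehicle and 78.9 to 83.6 CPM with LLY-283, a log2 fold change of -0.11 (adjusted p = 0.041). Both had groups that did not overlap, as had 5 of the 8 members tested and 46.7% of all genes tested. The log2 fold changes of EPHB3, EFNB3 and EPHA7 were 0.044, 0.083 and 0.031, within overlapping groups.

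**Figure D3:**
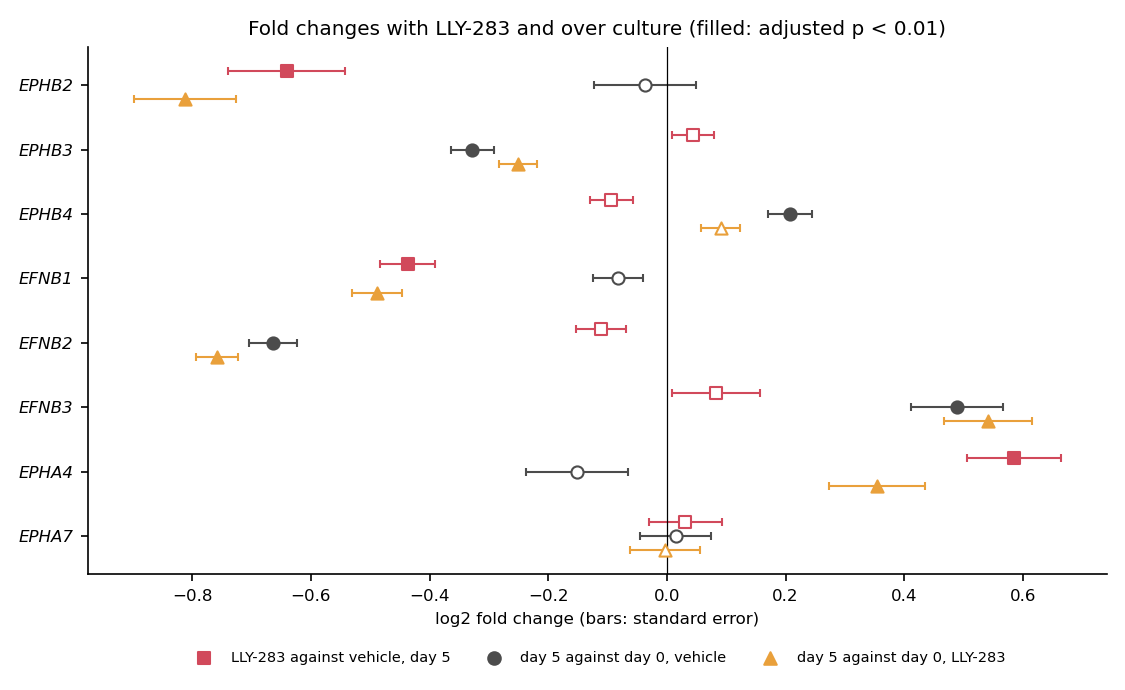
Log2 fold change of the 8 members tested, with bars for the standard error, for LLY-283 against vehicle at day 5 (squares) and for day 5 against day 0 with vehicle (circles) and with LLY-283 (triangles). Filled symbols passed an adjusted p of 0.01, and EPHB2, EFNB1 and EPHA4 are the members with a filled square.

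At day 5 the summed level of the 11 fibroblast markers also differed between libraries. It was 217, 222 and 385 CPM with vehicle and 302 to 306 CPM with LLY-283. COL3A1, a defining collagen gene, ranged from 0 to 127 counts over the 24 libraries. Its highest level, 9.39 CPM against a median of 0.218, was in vehicle day 5 repeat 3, the library at 385 CPM. So were those of COL1A1 (53.9, median 7.99), COL1A2 (36.9, median 1.08), FN1 (60.5, median 3.09), COL6A3 (6.43, median 2.52) and DCN (3.77, median 0.624). THY1, POSTN, LUM, FBN1 and FAP were highest in other libraries. The sum of 3 neuron markers, nearly all of it SYT1, was 54.3 to 56.5 CPM with vehicle and 66.6 to 72.0 CPM with LLY-283, and SNAP25 was at 0 to 6 counts over the 24 libraries. That of the 8 glial precursor markers was 4826 to 4938 CPM with vehicle and 4579 to 4641 CPM with LLY-283. For both of these lists the groups did not overlap at day 5, as for 46.7% of all single genes tested. The neuron sum did not overlap at day 0 either, at 59.8 to 69.40 CPM with vehicle and 69.42 to 72.2 CPM under the LLY-283 label. The glial precursor sum did overlap at day 0, at 4609 to 4842 CPM and 4796 to 4891 CPM. EPHB2, EFNB1 and EPHA4 were called whichever of the 6 day 5 libraries was left out, vehicle day 5 repeat 3 among them. Over these omissions the log2 fold changes ran from -0.69 to -0.61 for EPHB2, -0.47 to -0.42 for EFNB1 and 0.54 to 0.65 for EPHA4. The part of these markers in the differences of the members was not tested.

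The study collected the RNA of day 0 after 0 days of treatment, so the groups compared there differ by label. At day 0 no member was called, against 0.0169% of 17780 genes. None of the 8 members had an unadjusted p under 0.05 in edgeR's test, against 5.69% of all genes. DESeq2 called 0 members as well, and 4 of all genes. EPHB2 was at 13.2, 14.8 and 14.9 CPM in the vehicle libraries and 16.1, 16.3 and 14.95 CPM in those labelled LLY-283. These values did not overlap, as in 11.2% of all genes tested, and EPHB2 stood higher in the LLY-283 group at day 0, the opposite of day 5 (log2 fold change 0.13, adjusted p = 0.87). EFNB1 at 74.3 to 78.5 CPM and EPHA4 at 16.1 to 21.0 CPM overlapped between the groups.

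The libraries of days 1, 2 and 3 have no replicates and give the order of events without a test. EPHB2 was at 10.8 CPM with vehicle and 11.2 with LLY-283 at day 1, whereas day 2 gave 10.5 and 10.1 CPM and day 3 gave 11.8 and 8.27 CPM. It was thus lower than at day 0 in both groups at days 1 and 2, and only the vehicle libraries were back at 13.3 CPM or more by day 5. EFNB1 read 81.7 CPM with vehicle and 83.2 with LLY-283 at day 1, 78.9 and 77.5 CPM at day 2, and 75.4 against 65.3 CPM at day 3. EPHA4 read 18.9 CPM with vehicle and 18.8 with LLY-283 at day 1, and 18.8 and 17.6 CPM at day 2. At day 3 it read 17.9 CPM with vehicle and 19.2 with LLY-283.

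Day 7 depended on which library was read. EPHB2 was at 19.1 CPM in vehicle repeat 1 and 10.8 in LLY-283 repeat 1, but at 10.97 CPM in the library labelled vehicle repeat 2 and 18.9 in the one labelled LLY-283 repeat 2. EFNB1 was at 73.7 and 57.8 CPM in the repeat 1 libraries of vehicle and LLY-283, and at 70.0 and 81.0 CPM in those labelled repeat 2. EPHA4 was at 15.6 and 21.4 CPM in repeat 1, and at 18.4 and 15.7 CPM in repeat 2. For all 3 genes the repeat 1 libraries differed in the direction of day 5 and those labelled repeat 2 in the opposite one.

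Grouped by label, day 7 gave 0 calls among the members and among all 16826 genes tested (0%), with 236 genes (1.4%) at an unadjusted p under 0.05 in edgeR's test and 3 genes called by DESeq2. None of the 8 members had an unadjusted p under 0.05. Without repeat 2 of either group, LLY-283 less vehicle on the log2(CPM + 0.5) scale was -0.79 for EPHB2, -0.35 for EFNB1 and 0.44 for EPHA4, from 1 library each. Without repeat 1 of either group it was 0.76, 0.21 and -0.22, again from 1 library each. At day 10, also from 1 library each, EPHB2 read 13.6 and 8.35 CPM and EFNB1 93.9 and 71.2 CPM for vehicle and LLY-283. EPHA4 was at 29.1 CPM with vehicle and 23.9 with LLY-283 at day 10, so that the treated library was the lower one.

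**Figure D4:**
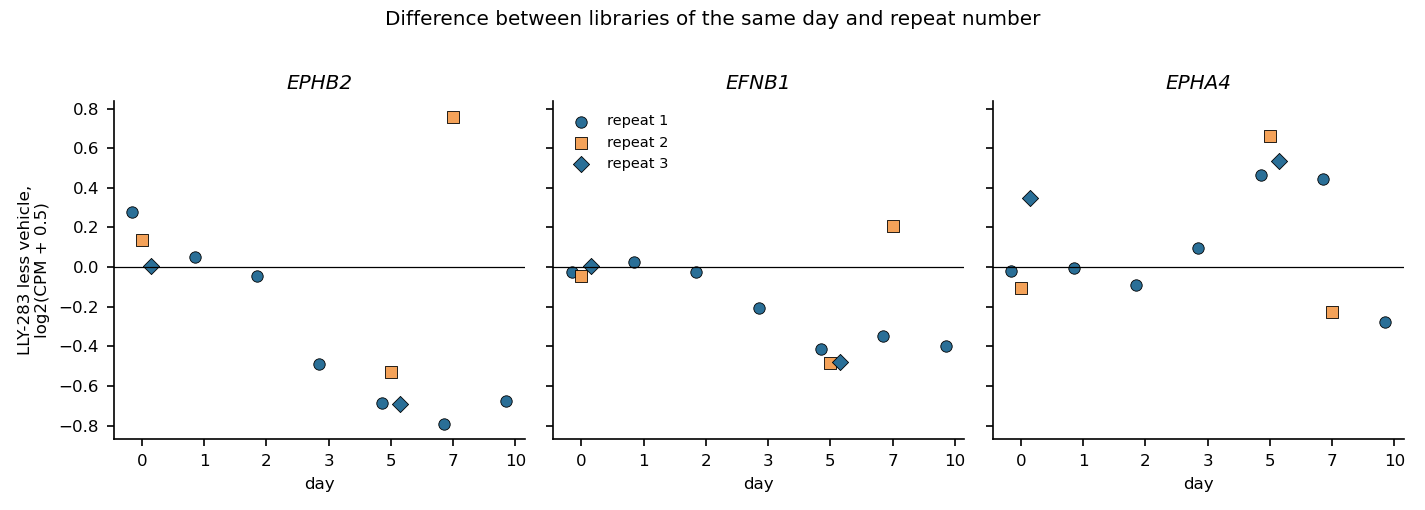
LLY-283 less vehicle on the log2(CPM + 0.5) scale, by day (x axis), for libraries of the same day and repeat number, where the numbers only name libraries and do not pair them. EPHB2 and EFNB1 lie below 0 from day 3 onwards and EPHA4 above 0 at day 5, except for the day 7 libraries labelled repeat 2, and EPHA4 lies below 0 at day 10.

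The change over culture was measured within each treatment group, from day 0 to day 5. With vehicle, 4 of the 8 members were called, 2 higher and 2 lower, where 38.9% of 17106 genes were called, 22.2% higher and 16.7% lower. With LLY-283, 6 were called, 2 higher and 4 lower, where 42.4% of 17341 genes were called, 22.9% higher and 19.5% lower. Both comparisons share the day 5 libraries with the treatment comparison, so their values stand side by side without a test of likeness. The groups of days 0 and 5 did not overlap for 5 of 8 members with vehicle, against 57.2% of genes tested, and for 7 of 8 with LLY-283, against 57.7%.

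EFNB2, known for its reverse signalling in vessels and neural progenitors, had the largest fall with vehicle of the 8 members tested. It went from 135, 142 and 142 CPM at day 0 to 92.1, 85.8 and 89.3 CPM at day 5, a log2 fold change of -0.66 ± 0.040 (SE; adjusted p = 6.9e-14). With LLY-283 it went from 141, 135 and 141 to 83.6, 78.9 and 80.9 CPM, a log2 fold change of -0.76 ± 0.036 (SE; adjusted p = 8.2e-15). The values of days 1 and 2 lay between, at 117 and 96.0 CPM with vehicle and 113 and 88.1 with LLY-283. EFNB2 was thus lower at day 5 in both groups, and it shares 1822 exon bases with a long non-coding gene on the opposite strand.

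EPHB3, the most abundant member, also fell in both groups. It went from 342 to 362 CPM at day 0 to between 275 and 292 CPM at day 5 with vehicle (log2 fold change -0.33, adjusted p = 1.9e-08). With LLY-283 it went from between 336 and 356 CPM to between 281 and 295 CPM (log2 fold change -0.25, adjusted p = 4.0e-07). At day 10 the vehicle library was at 224 CPM and the LLY-283 library at 251 CPM, the lowest values of EPHB3 in their groups.

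EFNB3, a B-type ligand of neural tissue, rose in both groups. With vehicle it went from 14.2, 15.3 and 15.2 CPM to 19.8, 21.8 and 21.96 CPM, a log2 fold change of 0.49 (adjusted p = 5.7e-06). With LLY-283 the log2 fold change was 0.54 (adjusted p = 1.0e-06), from 14.4 to 16.2 CPM at day 0 to between 20.8 and 23.9 CPM at day 5. EPHB4 rose with vehicle from between 140 and 147 CPM to between 162 and 168 CPM, a log2 fold change of 0.21 (adjusted p = 3.4e-05). With LLY-283 EPHB4 went from between 145 and 146 CPM to between 152 and 154 CPM, and its log2 fold change of 0.09 did not pass (adjusted p = 0.022), though it did with the repeat number as a block (adjusted p = 0.0083). EPHB4 shares 69 exon bases with SLC12A9 on the opposite strand.

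EPHB2, EFNB1 and EPHA4 were called over time with LLY-283 and not with vehicle. With LLY-283 their log2 fold changes from day 0 to day 5 were -0.81 (adjusted p = 1.8e-08), -0.49 (adjusted p = 6.1e-10) and 0.35 (adjusted p = 0.00087). With vehicle they were -0.037 (adjusted p = 0.75), -0.082 (adjusted p = 0.11) and -0.15 (adjusted p = 0.15). EPHA7, an EphA receptor of the developing cortex, stayed within 27.3 to 37.3 CPM over the 24 libraries and was called in neither group, at log2 fold changes of 0.015 and -0.003.

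For EFNB1 and EPHA4 these calls depended on the processing. Scaled by library size alone, EFNB1 was also called with vehicle, at a log2 fold change of -0.14 (adjusted p = 0.0068). In the shared fit of 22 libraries EPHA4 was not called with LLY-283, at 0.34 (adjusted p = 0.022).

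Whether the change from day 0 to day 5 differed between the treatment groups was tested with an interaction term on the 12 libraries of these days. EPHB2 (log2 difference -0.77, adjusted p = 1.7e-05), EFNB1 (-0.40, adjusted p = 7.9e-06) and EPHA4 (0.51, adjusted p = 0.0036) passed, 3 of 8 members, where 14.9% of 18369 genes did. The call of EPHA4 was lost when any of 7 of the 12 libraries was left out. These were vehicle day 0 repeats 1 and 2, vehicle day 5 repeats 2 and 3, LLY-283 day 0 repeats 1 and 2 and LLY-283 day 5 repeat 2, with log2 differences of 0.40 to 0.52 and adjusted p up to 0.017. EPHB2 and EFNB1 kept their calls in all 12 omissions. In a fit that also held the other libraries of days 0 to 7 under their labels, none of EPHB2, EFNB1 and EPHA4 passed (adjusted p = 0.083, 0.026 and 0.073), at log2 differences of -0.81, -0.44 and 0.48. In a fit of the 18 libraries of days 0 to 5, chosen after the values were seen, all 3 passed (adjusted p = 1.6e-05, 5.4e-06 and 0.0066). For EFNB2, EPHB3, EFNB3 and EPHB4, which moved with time, the interaction was between -0.11 and 0.084 and did not pass (adjusted p = 0.255, 0.223, 0.735 and 0.093).

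In the time course of days 0 to 7, with all 22 libraries under their labels, 0 of the 8 members were called, where 0.0289% of 20756 genes were. EFNB1 (adjusted p = 0.18) and EPHA4 (adjusted p = 0.31) had an unadjusted p under 0.05 in edgeR's test, 2 of 8 members against 15.3% of all genes. DESeq2 called 249 of these 20756 genes and 0 members, but gave an adjusted p for only 4 of the 8. It gave none for EPHB2, EFNB3, EPHA4 and EPHA7. In a fit of days 0 to 5 alone, chosen after the values were seen, edgeR's test called 1984 of 20642 genes. EPHB2 (adjusted p = 0.00019) and EFNB1 (adjusted p = 3.3e-05) were among them. Leaving out 1 LLY-283 day 7 library, or both day 7 libraries labelled repeat 2, also changed the calls. Those fits leave 1 library in a day 7 group, so their calls are not listed. With all 22 libraries in a shared fit, the day 5 difference of EPHB2 had the same size, -0.67 on the log2 scale, and did not pass (adjusted p = 0.034), while it did in the fit of 18 libraries (adjusted p = 1.9e-06).

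The remaining 12 genes of the family, 7 receptors and 5 ephrin-A ligands, were read as a list, of which 8 were tested. At day 5 EFNA1, a lipid-anchored ligand of EphA receptors, was called, at 33.1 ± 0.666 CPM in the treated and 25.3 ± 1.26 CPM in the vehicle libraries (SD, n = 3; log2 fold change 0.41, adjusted p = 5.6e-06), 1 of 8 against 26.1% of all genes. At day 0 EFNA1 was already at 15.6 ± 1.80 CPM in the libraries labelled LLY-283 and 13.2 ± 0.663 CPM in the vehicle libraries (SD, n = 3). In the interaction test of days 0 and 5, 0 of these 8 genes passed, against 14.9% of all genes. Over time with vehicle, 3 of 8 rose and none fell, namely EFNA1 (log2 fold change 0.93), EPHA2 (0.79) and EFNA4 (0.55), where 38.9% of all genes were called and 22.2% rose. With LLY-283, 5 of 8 rose and none fell, where 42.4% of all genes were called and 22.9% rose, with EPHA2, the receptor of EFNA1, at a log2 fold change of 0.90 and EFNA1 at 1.10. EPHA5, another neural EphA receptor, rose by a log2 fold change of 0.20, and EFNA3 and EFNA4 rose by 0.77 and 0.48. EFNA3 and EFNA4 share exons with a read-through transcript of both, which makes their split uncertain. The median log2 fold change of these 8 genes was 0.46 with vehicle and 0.53 with LLY-283, against -0.015 and 0.0052 over all genes.

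Downstream of the receptors and ligands, 30 genes for adaptors, exchange factors, phosphatases and proteases that act with Eph or ephrin proteins were read, of which 28 were tested. At day 5, 9 were higher and 2 lower with LLY-283. The higher ones of smallest p were INPPL1, the lipid phosphatase SHIP2 that binds Eph receptors (log2 fold change 0.43), CHN1, the Rac GTPase-activating protein that acts below EPHA4 (0.35), the Rac exchange factor TIAM1 (0.31), the exchange factor NGEF, also called ephexin (0.23), and RGS3, which binds B-type ephrins (0.25). ITSN1, an exchange factor that binds EPHB2, was lower (-0.21). The count was 11 of 28, where 26.1% of all genes were called. With DESeq2 it was 7, where 3300 of 16491 genes were called. In the shared fit of 22 libraries it was 1, and the share of all genes called there is not given here.

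In the interaction test of days 0 and 5, 3 of these 28 genes passed, namely INPPL1 (log2 difference 0.42), CHN1 (0.24) and NGEF (0.21), against 14.9% of all genes. Over time with vehicle 16 of 28 rose and 2 fell, where 22.2% of all genes rose and 16.7% fell. Those of smallest p were the SRC-family kinases FYN (log2 fold change 0.59) and YES1 (0.59), NGEF, which fell by 0.58 on the log2 scale, and CHN1 (0.52). With LLY-283 18 of 28 rose and 5 fell, where 22.9% of all genes rose and 19.5% fell. Those of smallest p were FYN (log2 fold change 0.69), CHN1 (0.75), SIPA1L1 (0.61), INPPL1 (0.53) and RGS3 (0.77). The median log2 fold change of the list was 0.30 with vehicle and 0.33 with LLY-283, against -0.015 and 0.0052 over all genes.

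The genes whose log2 CPM followed EPHB2 most closely over the 24 libraries were CLIC1 (Pearson r = 0.913), PUS7 (0.911), TTLL12 (0.904), SLC1A5 (0.895) and GNL3 (0.894), out of 20876 genes compared. The 24 points share days, treatment groups and the day 7 libraries that lie far from the other of their label, so these values are a description.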

How the data were processed

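Poly(A) RNA of 24 libraries was sequenced as paired reads after a directional preparation. The authors trimmed the reads, pseudoaligned them to human transcripts (hg38) with kallisto, and deposited estimated counts per gene for each library, rounded to whole numbers and unscaled. The kallisto version, the transcript release and the strand setting were not given in the sources used here. A gene's count is therefore a model's split of reads among transcripts, which is uncertain where exons overlap.

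Groups came from the sample titles. Counts were tested with edgeR 4.0.16 in R 4.3.3 by its quasi-likelihood test, with TMM scaling, its filter on low counts by group, and Benjamini-Hochberg adjustment over all genes tested, called at an adjusted p under 0.01. Each comparison was fitted on its own libraries, and the time course on the 22 libraries of days 0 to 7. Days 1, 2, 3 and 10 had no test of their own. Each test except that of day 0 was checked on simulated data. Level per kilobase used merged exons of the GENCODE annotation, and promoters came from RefSeq.

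The members, lists and tests were chosen with earlier results of these data known. The 10 members were named in each comparison, with up to 6 called genes of each list by smallest p and the 5 genes most like EPHB2. Marker lists for glial precursor, fibroblast, astrocyte, neuron, endothelial and immune cells came from general knowledge. The summed level of the last 3 was 46.1 to 74.9, 4.41 to 25.5 and 0.124 to 1.87 CPM. Libraries with the same repeat number were not paired, with correlations of their deviations from the group means between -0.0587 and 0.0155 at days 0 and 5. Alternatives were DESeq2 1.42.0, its size factors, scaling by library size only, dropping the filter or asking for 10 counts in each library, a threshold of 0.05, a block for the repeat number, the 22 libraries in 1 fit and leaving out each library. A library that was alone in its group was not left out. Fits without the day 7 libraries and the crossed pairing were added after the values were seen.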

Additional observations from a re-analysis of the deposited data

Results flagged for a closer look

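For 3 members the change from day 0 to day 5 differed between the treatment groups by an interaction term in edgeR's quasi-likelihood test. The log2 change with LLY-283 less that with vehicle was -0.77 for EPHB2, -0.40 for EFNB1 and 0.51 for EPHA4. In the CPM values behind it, EPHB2 went from 15.8 ± 0.748 to 8.89 ± 0.286 with LLY-283 and from 14.3 ± 0.959 to 14.1 ± 0.787 with vehicle (SD, n = 3). EFNB1 went from 76.1 ± 2.20 to 53.6 ± 2.14 CPM with LLY-283 and from 77.2 ± 1.38 to 73.7 ± 1.08 CPM with vehicle. EPHA4 went from 18.6 ± 2.47 to 23.6 ± 1.45 CPM and from 17.6 ± 1.39 to 16.0 ± 1.46 CPM. Part of the difference for EPHB2 lies at day 0, where the LLY-283 libraries were the higher ones. Of the 3, EPHA4 is the one whose call depended on single libraries.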

How the results depend on the processing

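Among 209 counts of called genes under the alternatives, 197 stayed within 1.5 times the reported count and 12 did not. Of 752 log2 fold changes of members, 707 kept their direction and their side of the threshold, 28 changed sign, 12 lost a call and 5 gained one. The 752 include those under the threshold of 0.05, which reads the same fold changes, so their sign could not change. None of the 28 was a called value, 17 were of EPHA7, 11 were at day 7 and some were both, and their smallest adjusted p was 0.591. An adjusted p of 0.05 gave 5 members and 2 other family genes at day 5, and 5 other family genes with vehicle over time. The share of all genes at this wider threshold is not given here, so these counts have no background to be read against. The fit of 22 libraries gave 0 members in the interaction of days 0 and 5 and 1 signalling partner at day 5. The share of all genes called in that fit is not given here either. DESeq2 gave 7 signalling partners at day 5, where it called 3300 of 16491 genes. Days 0 to 5 alone gave 2 members in the time course, EPHB2 and EFNB1, where 1984 of 20642 genes were called. In the whole time course no filter gave 2 members, EFNB1 and EPHA4, where 1217 of 43331 genes were called. There the count of members ran from 0 to 1 over 16 omissions, as the libraries of days 1, 2 and 3 were not left out. When each library was left out, it ran from 2 to 3 for the interaction, and that of other family genes at day 5 from 1 to 2. Library size alone moved 5 of 40 group means of members by more than 1 SD, those of EPHB4 and EFNB1, and gave 0.010 for EPHB2 at day 7, and for EPHA7 -0.040 with vehicle over time and 0.026 in the interaction. EPHA7 also read -0.0086 with no filter and -0.0060 with 22 libraries at day 7, -0.011 with at least 10 counts in every library, and 0.0035 with LLY-283 over time with 18 libraries. Leaving out each library moved EPHA7 from -0.018 to 0.059 at day 5, from -0.057 to 0.036 with LLY-283 over time and from -0.066 to 0.025 in the interaction. It moved EFNB3 from -0.017 to 0.073 and EPHA4 from -0.020 to 0.17 at day 0, and EPHB2 from -0.087 to 0.017 with vehicle over time. At day 7 it moved EPHB2 from -0.46 to 0.45, EPHB3 from -0.19 to 0.0062, EFNB1 from -0.30 to 0.17, EPHA4 from -0.12 to 0.34 and EPHA7 from -0.061 to 0.072. The cause of these shifts was not tested, and a group left with 1 library was assumed to vary like the others. The replicate block left 3 members called at day 5 and changed the call of EPHB4 with LLY-283 over time and no other. With the crossed pairing of day 7, whose same-numbered correlation was -0.165, 36 genes and 0 members were called. At this depth EPHB1 and EPHA3 did not pass the filter on low counts, so the main tests do not cover them.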
